A study of Homo sapiens with 4 samples.

Results

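The mRNAs of the nuclear-encoded subunits of the mitochondrial respiratory chain were followed in a native RNA immunoprecipitation (RIP-seq) of ORC1 from HCT116 nuclei. HCT116 is an established human cell line from a colorectal cancer. Genes were taken by symbol: protein-coding genes of the GENCODE v44 annotation named as NDUFA, NDUFB, NDUFC, NDUFS or NDUFV subunits, NDUFAB1, SDHA to SDHD, UQCR genes, CYC1, COX5 to COX8 subunits or ATP5 genes. The rule found 85 genes among the 63677 of the count table, of which 83 had at least 1 count and 80 had enough counts to be tested. By complex these were 38 genes of complex I, 4 of complex II, 10 of complex III, 14 of complex IV and 19 of complex V. The rule used names only, and no measured value.

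All 4 libraries came from cells transfected for 48 h with a pcDNA3.1 plasmid encoding ORC1 with a triple FLAG tag, and ORC1 belongs to the origin recognition complex, which marks the sites where DNA replication starts. In the IP group (n = 2), RNA was recovered with the anti-FLAG M2 antibody, and in the Input group (n = 2) the nuclear RNA of the same RIP replicate was sequenced without the pull-down. The comparison asks which RNAs are present at a higher or lower share in the ORC1 pull-down than in the nuclear extract it was made from. No pull-down from cells without the tagged protein was analysed here, so RNA held by ORC1 and RNA held by the antibody or the beads cannot be told apart. The tagged ORC1 is overproduced from the plasmid and was measured in a single cell line.

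Libraries held from 9213877 (Input replicate 2) to 27483148 (IP replicate 1) counts. Levels are CPM, a gene's counts as a share of its library, after TMM scaling, a correction for the overall make-up of each library, with factors from 0.758 to 1.28 that were lower in both IPs than in both Inputs. ORC1 itself stood at 1108 and 18551 CPM in IP replicates 1 and 2, and at 333 and 5063 CPM in the Inputs of the same numbers. The level counted at the ORC1 gene was thus far higher in replicate 2 than in replicate 1. In each, the IP stood above its own Input by a like amount, with log2 ratios of 1.73 and 1.87. The paper describes the plasmid ORC1 sequence as codon-optimized, and how much of its RNA was counted at the ORC1 gene was not tested. The edgeR test used here did not pair the replicates, so the spread between them enters its adjusted p of 0.374 for ORC1. A value for ORC1 with the replicates paired is not given here. The epithelial genes EPCAM, CDH1, KRT8 and KRT18 were present at 46.8 CPM or more in every library, while KRT20 (0.401 to 1.44 CPM) and VIL1 (up to 0.284 CPM), the other 2 of 6 epithelial markers, were near 0. Of 6 markers of other cell types, PECAM1 was at 0, PTPRC, ALB and GFAP were near 0 and DES stood at 3.00 to 5.12 CPM. COL1A1, a fibroblast collagen and the last of the 6, was present at 21.6 and 26.7 CPM in the IPs and at 7.90 and 10.8 CPM in the Inputs, and its part in the results below was not tested.

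The respiratory chain passes electrons from NADH (complex I) and succinate (complex II) through ubiquinone, complex III and cytochrome c to oxygen (complex IV), and the proton gradient this builds drives ATP synthase (complex V). Apart from a small core encoded in mitochondrial DNA, the subunits are encoded in the nucleus, made in the cytosol and imported. Many of them are very short proteins that span the inner membrane once, whereas the catalytic and redox subunits are larger. The RNA here came from nuclei, so a level is that of the nuclear preparation and not of the whole cell, and in such bulk samples fewer cells carrying an RNA and less RNA per cell cannot be told apart.

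Of the 80 members tested, 36 were depleted in the IP and 4 were enriched. A call needed a Benjamini-Hochberg adjusted p below 0.05 by edgeR's quasi-likelihood test over all 14645 genes tested, and a log2 fold change past 1 in either direction. Depleted members made up 45% of those tested, beside 8.3% of all genes, and enriched members made up 5%, beside 10.5% of all genes. The median log2 fold change of the members was -0.91, with quartiles at -1.49 and -0.06, whereas the median over all genes was 0.01 and over protein-coding genes 0.08. A further 5 members had an adjusted p below 0.05 and a change smaller than the fold minimum. That test leaves out the pairing of each IP with its Input. With a replicate term added (the replicate block), some uncalled members had an adjusted p below 0.05, such as NDUFS1 (0.000909) and COX6B1 (0.00248). It stayed above 0.05 for others, such as ATP5F1B (0.467) and SDHB (0.657).

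The direction was shared by the replicates for most members. Both replicate ratios, each the log2 of IP over Input in CPM with a pseudocount of 0.5, were below 0 in 58 of the 80 members, beside 41.7% of all genes, and both were above 0 in 16, beside 42.9%. Both ratios lay below -1 in 29 members, beside 6.96% of all genes, and above 1 in 4, beside 8.95%. The median ratio was -0.86 in replicate 1 and -0.70 in replicate 2. The IP libraries lay below the Input libraries without overlap in 51 of the 80 members, beside 31.9% of all genes. All 36 depleted members had this order, but they were called on these same libraries, so their order is no further support. The opposite order, both IPs above both Inputs, was found in 12 members, beside 33.2% of all genes. Among the 36 depleted members the ratio of replicate 1 was the lower of the pair in 34. The enriched count changed more with the processing than the depleted one: with CPM scaled by library size alone, which moved the median of all genes to -0.59, 48 members were depleted and none was enriched, and without Input replicate 2, the shallowest library, 44 were depleted and none enriched.

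**Figure D1:**
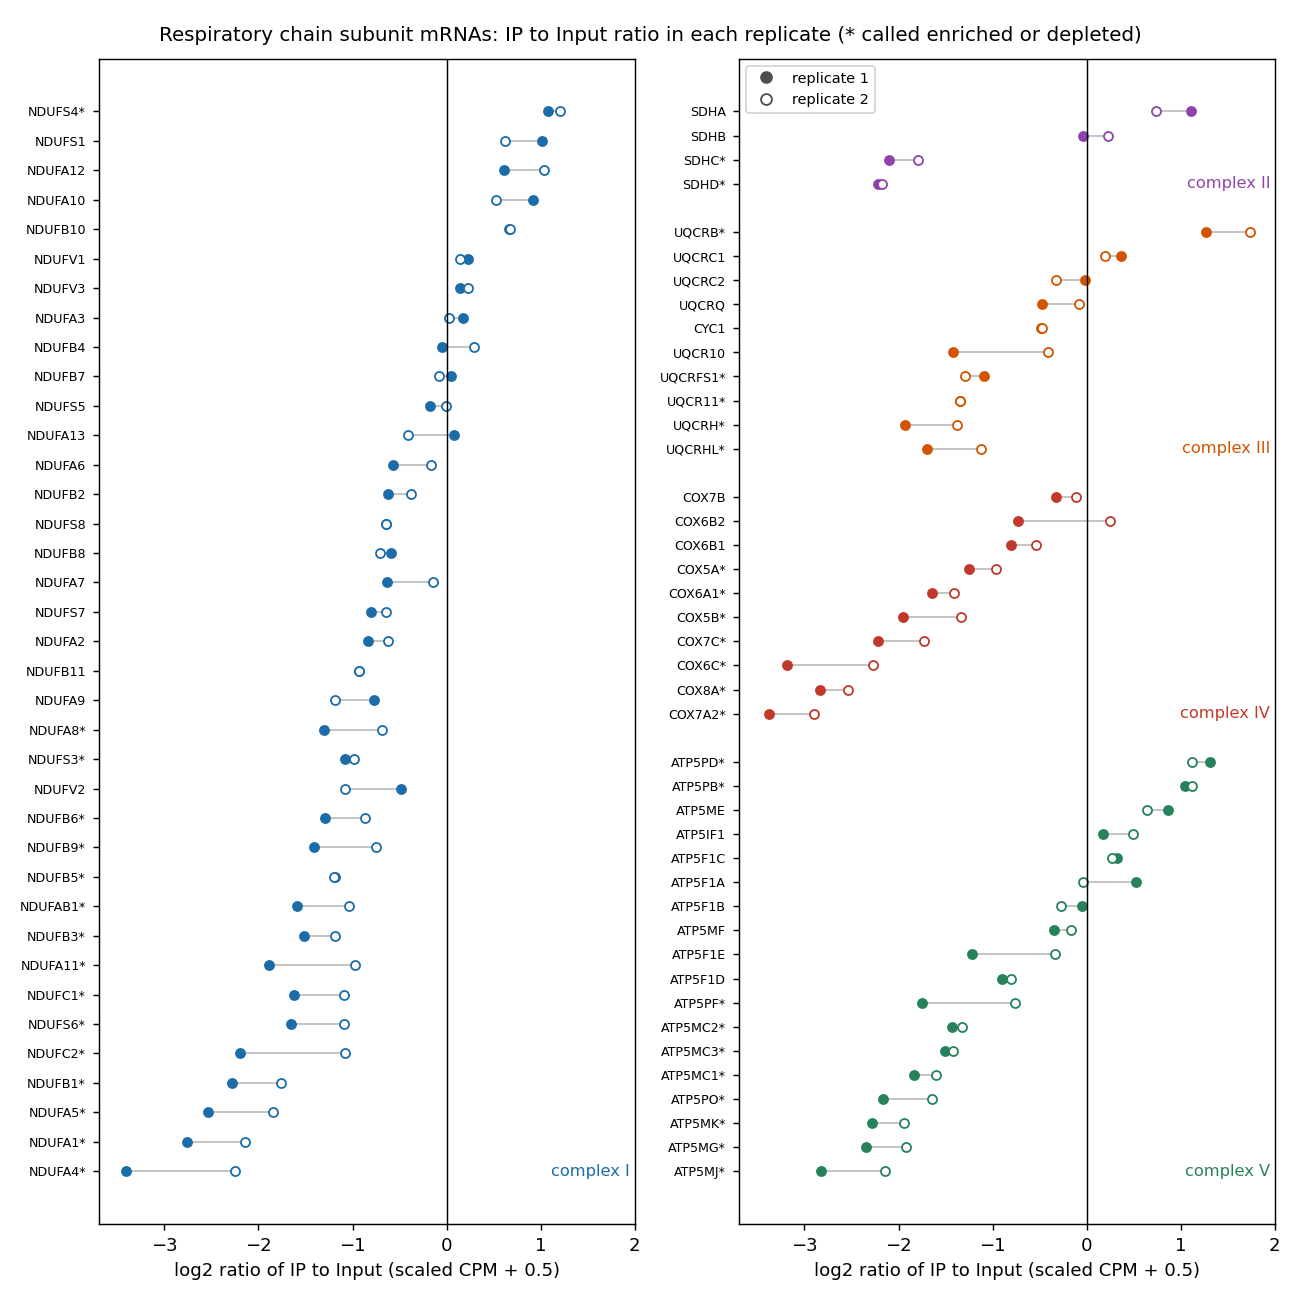
Log2 ratio of IP to Input (x axis, scaled CPM with a pseudocount of 0.5) for the members tested (rows, grouped by complex, 1 member not drawn), with replicate 1 as filled and replicate 2 as open points. Asterisks mark the 36 depleted and 4 enriched members, and most rows lie left of 0 in both replicates.

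A few abundant transcripts made up much of the summed level. All members together held 7747 and 6018 CPM in IP replicates 1 and 2 and 8369 and 6728 CPM in the Inputs. ATP5F1A and ATP5F1B alone made up 28.2% and 24.6% of this in the IPs and 22.8% and 24.9% in the Inputs. Complex IV differed most on this scale, with 329 and 317 CPM in the IPs against 936 and 739 CPM in the Inputs, and the groups were far apart. Complex V, by contrast, held 3723 and 2646 CPM in the IPs and 3539 and 2892 CPM in the Inputs, which overlapped. These sums depend on the TMM scaling, after which all genes summed to 1319870 and 1153720 CPM in the IPs and 840610 and 788542 CPM in the Inputs. With library size alone as the scaling, the median log2 fold change of complex V was -1.44 in place of -0.85. It was -0.88 with RLE scaling and -1.01 with upper quartile scaling. The sums, and whether they overlap, are given here on the TMM scale only.

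Complex IV, cytochrome c oxidase, had 7 of its 10 tested members depleted and none enriched, with a median log2 fold change of -1.60. COX7A2, a small membrane subunit, was the most depleted member of the whole chain. It stood at 8.60 and 9.16 CPM in the IPs and at 93.9 and 71.5 CPM in the Inputs, a log2 fold change of -3.22 (SE 0.26, adjusted p = 0.0105). Both IPs were thus far below both Inputs, with little spread within either group. COX8A, another short membrane subunit, stood at 12.9 and 12.1 CPM in the IPs against 95.2 and 72.5 CPM in the Inputs (log2 fold change -2.75, SE 0.25, adjusted p = 0.0105), and 35.4% of its exonic bases are shared with another gene on its strand. COX6C followed with 11.2 and 18.4 CPM in the IPs against 106.5 and 90.5 CPM in the Inputs (log2 fold change -2.74, SE 0.31), although 17 pseudogenes carry its name and could share its reads. The remaining depleted members of this complex were COX7C, COX5B, COX6A1 and COX5A, from -1.98 to -1.14.

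The coding sequence of COX7A2 is shown because it is the most depleted member and one of the shortest, at 249 coding bases without the stop codon. The gene lies at chr6:75237675-75250323 on the minus strand (GRCh38, GENCODE v44), and its exons overlap no other annotated gene, although 2 pseudogenes carry its name. It is printed 5′ to 3′ from the canonical transcript, without introns and with no part in capitals.
COX7A2: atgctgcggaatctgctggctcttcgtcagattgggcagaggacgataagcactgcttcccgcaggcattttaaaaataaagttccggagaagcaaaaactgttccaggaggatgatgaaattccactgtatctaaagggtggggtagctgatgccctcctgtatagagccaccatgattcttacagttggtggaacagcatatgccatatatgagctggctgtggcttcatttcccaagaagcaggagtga

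Where complex IV has tissue isoforms, HCT116 nuclei held mainly the widely expressed copy. COX6A1 was depleted, at 15.7 and 17.5 CPM in the IPs against 50.2 and 47.2 CPM in the Inputs, while COX6A2, its heart and muscle counterpart, had no count in any library, which allows up to 0.144, 0.171, 0.172 and 0.257 CPM in IP 1, IP 2, Input 1 and Input 2 (3 counts, counting error only). COX7B2 likewise had none, COX8C had 2 counts, both in Input replicate 2, and COX7A1, the muscle form of COX7A2, had 4 and 3 counts in the IPs and 2 and 7 in the Inputs. These 4 and ATP5MGL, with 1 count, were the 5 members that were not tested. COX7B, at 107.6 and 93.5 CPM in the IPs against 135.3 and 101.0 CPM in the Inputs, had the highest fold change in the complex, -0.23 (adjusted p = 0.536), and its groups overlapped. COX6B1 had a log2 fold change of -0.70 (adjusted p = 0.109) and its testis copy COX6B2, with 0.528 and 1.31 CPM in the IPs and 1.20 and 1.03 CPM in the Inputs, one of -0.29 (adjusted p = 0.782).

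Complex I, NADH dehydrogenase, had 15 of 38 members depleted and 1 enriched, with a median of -0.76. The 7 nuclear core subunits, among which are those that bind the flavin and the iron-sulfur clusters, had a median of -0.65 with only NDUFS3 depleted, and the 31 accessory subunits, which surround the core, a median of -0.95 with 14 depleted and NDUFS4 enriched. The difference between these classes was not tested. NDUFA4 was the most depleted gene that carries a complex I symbol, with 6.68 and 12.2 CPM in the IPs against 75.6 and 60.2 CPM in the Inputs (log2 fold change -2.85, SE 0.34, adjusted p = 0.0105). Although named for complex I, its protein is regarded as a part of complex IV, so its depletion falls beside that of COX7A2 and COX8A. NDUFA1, a short membrane subunit encoded on chromosome X, stood at 9.27 and 9.33 CPM in the IPs and at 65.7 and 42.9 CPM in the Inputs (log2 fold change -2.55, SE 0.28, adjusted p = 0.0105).

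The core subunits differed among themselves. NDUFS3 was depleted, at 33.6 and 26.4 CPM in the IPs against 71.7 and 52.7 CPM in the Inputs (log2 fold change -1.05, SE 0.26, adjusted p = 0.0303). Other genes share 21.2% of the exonic bases of NDUFS3. NDUFS1, the largest core subunit, lay the other way, at 364 and 270.1 CPM in the IPs against 180.5 and 175.5 CPM in the Inputs, yet with a log2 fold change of 0.83 it was not called (adjusted p = 0.0586). Its IPs were above its Inputs without overlap. Further core subunits had log2 fold changes of -0.75 for NDUFS7 (adjusted p = 0.0496), -0.65 for NDUFS8 (adjusted p = 0.111) and 0.19 for NDUFV1 (adjusted p = 0.578). Genes on the opposite strand share 51.4% of the exonic bases of NDUFS7. NDUFV2 was counted at only 1.01 and 2.90 CPM in the IPs and 1.60 and 6.68 CPM in the Inputs, and 28.4% of its exonic bases are shared with another gene, so its value of -1.07 (SE 0.78) is uncertain.

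NDUFS4, an accessory subunit needed for a stable complex I, was the single member of the complex that was enriched. Its levels were 116.4 and 102.2 CPM in the IPs and 55.0 and 44.2 CPM in the Inputs (log2 fold change 1.14, SE 0.24, adjusted p = 0.0194), and the replicate ratios of 1.07 and 1.20 were close. The gene, at chr5:53560633-53683338 on the plus strand of GRCh38, overlaps no other annotated exon and has no pseudogene of its name. NDUFS5, which had the highest Input level per kilobase of exons in complex I, showed almost no difference, with 144.7 and 105.2 CPM in the IPs against 164.0 and 105.7 CPM in the Inputs (log2 fold change -0.11, adjusted p = 0.822).

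Complex II, succinate dehydrogenase, is made only of nuclear-encoded subunits, and its 4 mRNAs fell into separate ranges. The membrane anchors SDHC and SDHD, which hold the haem and bind ubiquinone, were both depleted. SDHD stood at 9.70 and 4.89 CPM in the IPs and at 46.9 and 23.9 CPM in the Inputs (log2 fold change -2.28, SE 0.44, adjusted p = 0.0169). SDHC stood at 4.13 and 5.29 CPM in the IPs and at 19.4 and 19.5 CPM in the Inputs (log2 fold change -2.05, SE 0.26, adjusted p = 0.0105). SDHA, the flavoprotein that oxidises succinate, was higher in the IPs, at 220.5 and 182.3 CPM against 101.8 and 109.2 CPM (log2 fold change 0.93, SE 0.24, adjusted p = 0.0334), but did not reach the fold minimum. SDHB, which carries the iron-sulfur clusters, overlapped between groups, with 156.5 and 139.8 CPM in the IPs and 160.7 and 119.2 CPM in the Inputs (log2 fold change 0.08, adjusted p = 0.842). SDHA has 4 same-named pseudogenes and SDHD 6, and another gene on the same strand shares 21.7% of the exonic bases of SDHA and 11.4% of those of SDHD.

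Complex III, the cytochrome bc1 complex, had 4 of 10 members depleted and 1 enriched, with a median of -0.72. UQCRB, a small subunit near the ubiquinone site, was the most enriched member of the chain, at 456 and 362 CPM in the IPs against 189.4 and 108.7 CPM in the Inputs (log2 fold change 1.46, SE 0.33, adjusted p = 0.0253). Both IPs were above both Inputs, although 3 pseudogenes share its name. UQCRH, the hinge protein that helps cytochrome c dock, was depleted, at 34.5 and 35.8 CPM against 133.4 and 93.5 CPM (log2 fold change -1.69, SE 0.26, adjusted p = 0.0116). UQCRHL, an intronless copy of it counted at 12 and 16 reads in the IPs and 52 and 30 in the Inputs, had a log2 fold change of -1.90 (SE 0.54, adjusted p = 0.0439), and the reads of the pair may be split between them. Among the core subunits, the iron-sulfur protein UQCRFS1 was depleted, at 40.3 and 29.3 CPM against 86.5 and 72.9 CPM (log2 fold change -1.19, SE 0.25, adjusted p = 0.0204). CYC1, which carries the haem of cytochrome c1, had a log2 fold change of -0.48 (adjusted p = 0.194), and the core proteins UQCRC1 and UQCRC2 values of 0.28 (adjusted p = 0.417) and -0.16 (adjusted p = 0.662).

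Complex V, ATP synthase, had 8 of 18 tested members depleted and 2 enriched, with a median of -0.85. The 5 subunits of the catalytic head, the part that makes ATP, had no call and a median of -0.15. ATP5F1B, the catalytic beta subunit, had the highest Input level of all members per kilobase of exons, 529 and 453 CPM per kilobase, and stood at 1144 and 836 CPM in the IPs against 1183 and 1013 CPM in the Inputs (log2 fold change -0.15, adjusted p = 0.745). ATP5F1A overlapped between groups in the same way (log2 fold change 0.28, adjusted p = 0.554), ATP5F1C had 0.30 (adjusted p = 0.476), ATP5F1D -0.86 (adjusted p = 0.0324) and ATP5F1E -0.83 (adjusted p = 0.0814). Outside the head, ATP5MJ, a small membrane subunit, was the most depleted of the complex, at 7.11 and 11.8 CPM in the IPs against 53.4 and 54.0 CPM in the Inputs (log2 fold change -2.51, SE 0.30, adjusted p = 0.0105).

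The 3 genes ATP5MC1, ATP5MC2 and ATP5MC3 encode the same mature subunit c, whose ring turns with the proton flow, behind different import sequences, and all 3 were depleted. ATP5MC1 stood at 31.3 and 27.2 CPM in the IPs against 113.1 and 83.4 CPM in the Inputs (log2 fold change -1.75, SE 0.25, adjusted p = 0.0107). ATP5MC3 stood at 73.8 and 63.1 CPM against 210.02 and 169.8 CPM (log2 fold change -1.47, SE 0.25, adjusted p = 0.0131), and ATP5MC2 at 41.9 and 32.0 CPM against 114.2 and 80.9 CPM (log2 fold change -1.40, SE 0.27, adjusted p = 0.0174). In each of the 3 genes both IPs lay below both Inputs, and the differences between the genes were not tested. Their coding sequences are related and reads may be shared among them.

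The peripheral stalk, which holds the head still while the ring turns, had members called in both directions. ATP5PD stood at 365 and 238 CPM in the IPs against 146.8 and 108.9 CPM in the Inputs (log2 fold change 1.24, SE 0.31, adjusted p = 0.0314), and ATP5PB at 424 and 318 CPM against 205 and 145.4 CPM (log2 fold change 1.08, SE 0.29, adjusted p = 0.0393). Both had higher levels in each IP than in either Input, although 4 pseudogenes carry the name of ATP5PD and 8 that of ATP5PB. ATP5PO and ATP5PF, the other stalk subunits, were depleted, with log2 fold changes of -1.96 (adjusted p = 0.0105) and -1.35 (adjusted p = 0.0286). Other genes share 23.3% of the exonic bases of ATP5PO and 37.3% of those of ATP5PF, so both values are less certain. The stalk was set apart after these values were seen.

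**Figure D2:**
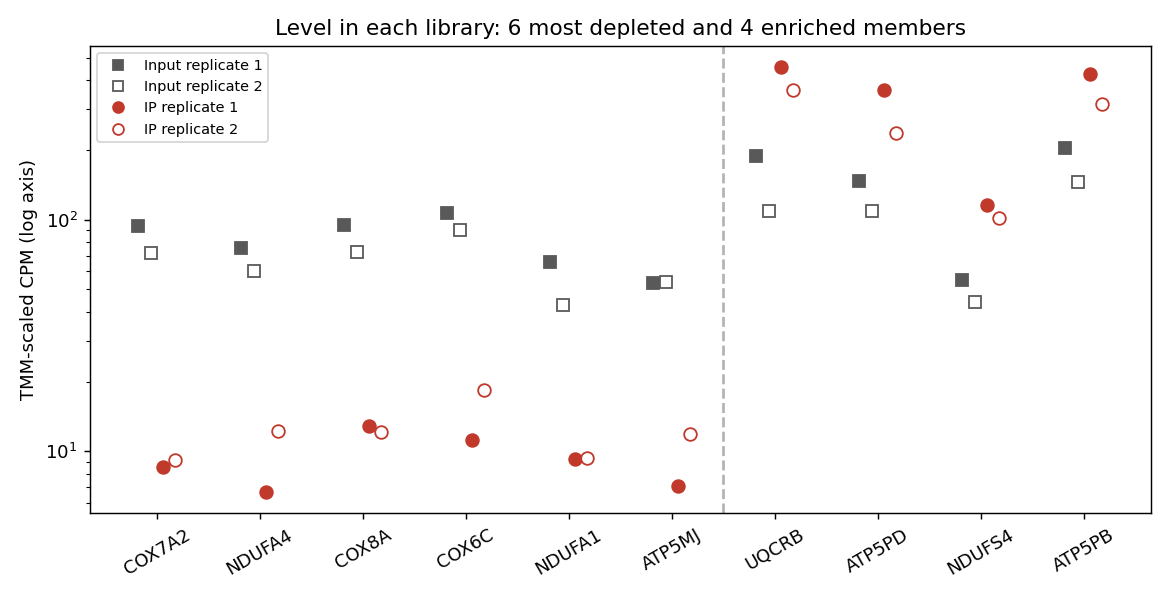
TMM-scaled CPM (log axis) in each of the 4 libraries for the 6 most depleted members (left of the dashed line) and the 4 enriched members (right), with Inputs as grey squares, IPs as red circles and replicate 2 as open symbols. COX7A2 falls from 93.9 and 71.5 CPM in the Inputs to 8.60 and 9.16 CPM in the IPs. IP and Input symbols overlap for none of the 10 genes, which were picked by their calls on these same libraries.

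The 4 enriched members all kept a positive fold change under each alternative tried, but the calls depended on scaling and on single libraries. With library size alone as the scaling, or without Input replicate 2, none of UQCRB, ATP5PD, NDUFS4 and ATP5PB was called. Without IP replicate 1, ATP5PD (0.94, adjusted p = 0.101) and ATP5PB (0.90, adjusted p = 0.125) were not called. With upper quartile scaling NDUFS4 (0.97) and ATP5PB (0.91) fell short of the fold minimum, and ATP5PB also lost the call with RLE scaling (adjusted p = 0.0577) and with no count filter (adjusted p = 0.0754). All 36 depleted members stayed below 0 in every alternative fit, and all 36 remained called with each of the 3 other scalings and without Input replicate 2. Of the 36, 30 remained called without IP replicate 1, 28 without Input replicate 1 and 30 without IP replicate 2. NDUFS3 lost the call without Input replicate 1 (-0.77, adjusted p = 0.0605) and without IP replicate 2 (-0.84, adjusted p = 0.141), UQCRFS1 without IP replicate 2 (-0.93, adjusted p = 0.103), and UQCRHL without each of these 3 libraries (adjusted p from 0.118 to 0.301) and with DESeq2 (adjusted p = 0.0675).

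The ATP5PD coding sequence is printed for contrast with that of COX7A2, as an enriched member of 483 coding bases. It lies at chr17:75038863-75046985 on the minus strand of GRCh38, and 19.1% of its exonic bases lie opposite exons of KCTD2 and RN7SL573P. Bases 187 to 486 of the coding sequence, stop codon included and counted from 1 at the A of the start codon, are shown, since they hold all 3 of its GAAGAA repeats, which are in capitals.
ATP5PD: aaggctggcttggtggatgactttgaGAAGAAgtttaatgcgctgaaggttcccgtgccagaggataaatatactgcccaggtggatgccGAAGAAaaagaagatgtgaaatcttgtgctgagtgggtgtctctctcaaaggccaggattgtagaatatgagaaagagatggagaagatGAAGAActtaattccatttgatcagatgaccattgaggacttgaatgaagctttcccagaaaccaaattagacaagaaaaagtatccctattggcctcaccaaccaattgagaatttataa

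GAA repeats were counted in the transcript sequences of the members, in the sense of the RNA. GAAGAA was found in the coding sequence of 36 of the 80 members tested (45%), beside 70.5% of 12542 protein-coding genes tested, which are longer (median coding length 1431 bases, beside 409.5 for the members). The longer run GAAGAAGAA was found in the canonical transcripts of 6 members (7.5%), namely ATP5F1E, ATP5IF1, ATP5ME, NDUFA10, SDHB and UQCRB, beside 14.8% of protein-coding genes. Among these 6, UQCRB was enriched and the others were not called. COX7A2 and NDUFS4, which moved in opposite directions, hold no GAAGAA in their coding sequences.

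The share of depleted members was highest among those with short coding sequences, and the share of depleted protein-coding genes had the same order over the bins. Of 24 members with under 300 coding bases, 14 were depleted (58.3%), beside 42.9% of the 231 protein-coding genes of that length. Of 22 with 300 to under 450 bases, 12 were depleted (54.5%), beside 36.8% of 535 genes. Of 13 with 450 to under 600 bases, 7 were depleted (53.8%), beside 26.4% of 717 genes, and of 10 with 600 to under 1000 bases, 3 were depleted (30%), beside 14.3% of 2290 genes. None of the 11 members with 1000 or more coding bases was depleted or enriched, beside 2.54% depleted and 15.9% enriched of 8769 genes. The bin limits were set after the data were seen, and the bins of members hold few genes.

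**Figure D3:**
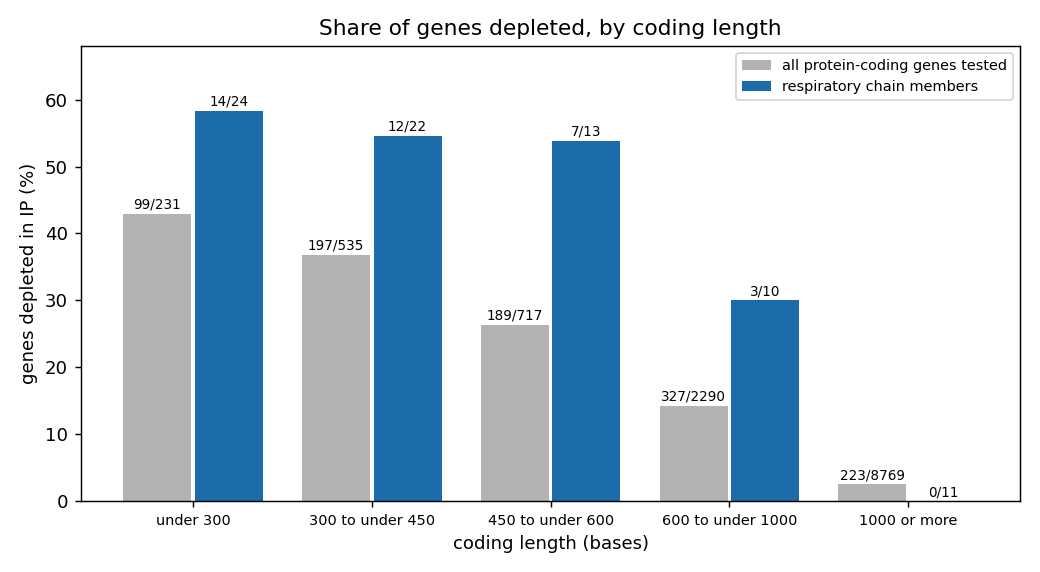
Percent of genes depleted in the IP (y axis) by coding length in bases (x axis), for all protein-coding genes tested (grey) and respiratory chain members (blue), with depleted over tested genes above each bar. The member share is 58.3% under 300 bases and 0 of 11 from 1000 bases on.

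The median log2 fold change of the members was below that of all protein-coding genes in each bin. It was -1.42 against -1.06 under 300 bases, -1.23 against -0.80 from 300 to under 450, -1.04 against -0.69 from 450 to under 600, -0.70 against -0.40 from 600 to under 1000 and 0.19 against 0.32 from 1000 bases on. Across the 80 members Spearman's rank correlation between log2 fold change and coding length was 0.48, with 0.52 and 0.39 for the ratios of replicates 1 and 2, and across the 12542 protein-coding genes it was 0.59. With the length of all annotated exons in place of the coding length, the rank correlation over the members was 0.19, and with the GC percent of the coding sequence it was 0.09. These are descriptions across genes that share the same 4 libraries, and genes are not independent replicates.

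**Figure D4:**
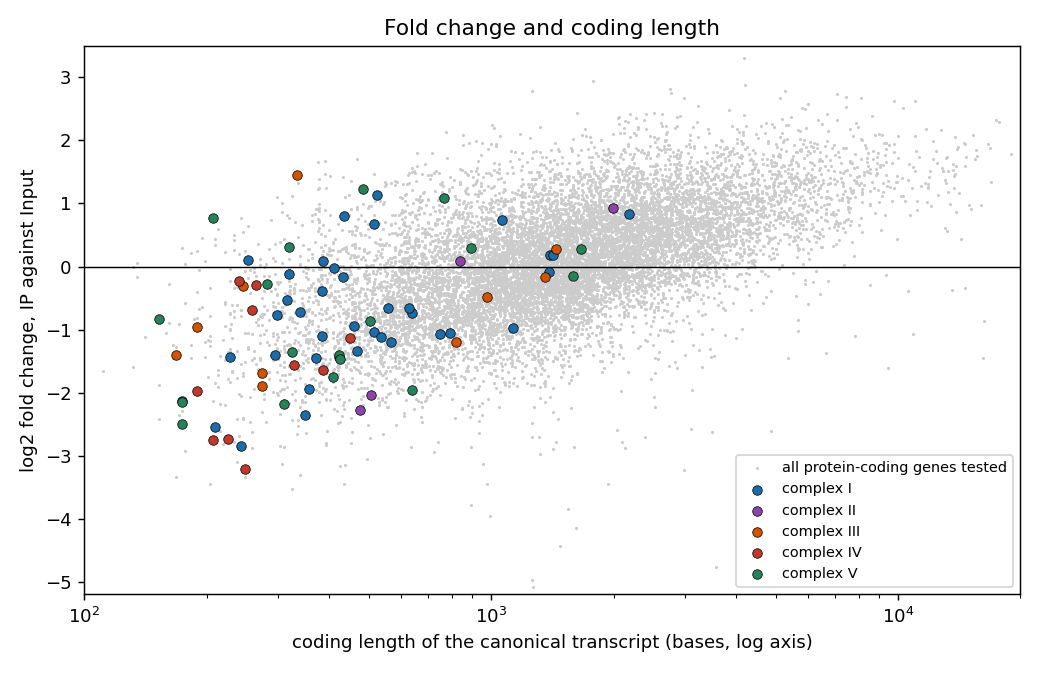
Log2 fold change of IP against Input (y axis) by coding length of the canonical transcript in bases (x axis, log axis) for members coloured by complex, over all protein-coding genes tested in grey. Members under 600 coding bases spread from -3.22 to 1.46, and the 11 members of 1000 or more bases lie between -0.97 and 0.93.

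Nuclear respiratory genes are known to be transcribed under NRF1, GABP (an ETS factor) and YY1, whose sites lie near their start sites. Promoters of 300 bases were at hand from RefSeq (GRCh38.p14) for 68 of the 85 members, 65 of them tested. The NRF1 letters, GCGCA and GCGC with any 1 base between them, were found on either strand in 16 of the 65 (24.6%), beside 6.29% of 27305 promoters and 11.6% of the promoters of 10214 protein-coding genes tested. The ETS letters CCGGAAGT were found in 10 (15.4%), beside 4.44% and 8.80%, and the YY1 letters AAGATGGCG in 8 (12.3%), beside 1.85% and 3.99%. Matches of different motifs overlapped in no promoter. Of the 16 members with NRF1 letters, 7 were depleted, and of the 49 without, 21 were. For ETS these counts were 6 of 10 and 22 of 55, and for YY1 1 of 8 and 27 of 57.

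The SDHA and SDHD promoters are shown because both hold NRF1 letters while their mRNAs lay on opposite sides of 0. SDHA, at chr5:218070-218369 on the plus strand, holds 4 NRF1 matches, and SDHD, at chr11:112086623-112086922 on the plus strand, holds 1 NRF1 match and 1 ETS match on the reverse strand. Capitals mark the matches.
SDHA: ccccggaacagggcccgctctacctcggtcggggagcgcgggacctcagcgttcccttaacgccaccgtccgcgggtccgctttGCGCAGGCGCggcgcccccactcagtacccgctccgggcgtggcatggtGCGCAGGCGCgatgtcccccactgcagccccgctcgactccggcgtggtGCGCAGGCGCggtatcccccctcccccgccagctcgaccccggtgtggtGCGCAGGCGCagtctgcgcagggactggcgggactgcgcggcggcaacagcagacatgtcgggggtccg
SDHD: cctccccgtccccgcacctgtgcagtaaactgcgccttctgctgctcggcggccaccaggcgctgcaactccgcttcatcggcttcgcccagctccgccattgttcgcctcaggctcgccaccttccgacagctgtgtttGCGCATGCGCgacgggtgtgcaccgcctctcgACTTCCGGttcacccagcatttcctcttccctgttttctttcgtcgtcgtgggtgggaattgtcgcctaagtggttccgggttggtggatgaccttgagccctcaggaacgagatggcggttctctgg

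Genes that work with the chain were described by the same calls. Of 59 assembly factors, the proteins that build the complexes but are not part of them, 16 were depleted (27.1%, beside 8.3% of all genes and 26.4% of protein-coding genes with 450 to under 600 coding bases, the bin that holds their median of 525) and 2 were enriched (3.39%, beside 10.5% of all genes). Their median log2 fold change was -0.72. Of the 9 factors for complex III, 6 were depleted (66.7%), beside 18.2% (complex IV) to 25% (complex II) for the other complexes. The factors for complex III had a median of 378 coding bases. Of protein-coding genes, 36.8% with 300 to under 450 coding bases and 42.9% with fewer were depleted. The difference was not tested. The enriched pair of assembly factors was NDUFAF6 (log2 fold change 1.01) and COA8 (1.30), and with the replicate block NDUFAF6, at 0.99, was not called. Of 14 genes for cytochrome c and ubiquinone synthesis, none was enriched, beside 10.5% of all genes, and 3 were depleted (21.4%), beside 8.3% of all genes. The share was 2.54% for protein-coding genes of 1000 or more coding bases and 14.3% for those of 600 to under 1000. The 14 genes had a median of 1044 coding bases, from 315 (CYCS) to 1941 (COQ8A), so no single bin matches them. COQ10B, with 714 coding bases, is in the shorter of these bins. The 3 depleted genes were COQ10B (-1.76), COQ2 (-1.44) and PDSS2 (-1.13), and cytochrome c itself, CYCS, had -0.53 (adjusted p = 0.22). Of 10 tested regulators of nuclear respiratory genes or mitochondrial transcription, PPRC1, a large coactivator, was enriched (1.15), TFB2M, a mitochondrial transcription factor, was depleted (-1.05), which is 10% in each direction and near the shares of all genes, and the median was 0.47.

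A pair of tested subunit genes that the symbol rule left out also lay below 0: COX7A2L, a factor of supercomplexes, was depleted (-2.15, adjusted p = 0.0105), and COX4I1 had -0.86 (adjusted p = 0.0491). Mitochondrial ribosomal proteins, another large set of short nuclear-encoded mitochondrial proteins, had 17 of 74 tested genes depleted (23.0%) and none enriched, beside 8.3% and 10.5% of all genes. Their median was -0.50 and their median coding length 591 bases. Of protein-coding genes with 450 to under 600 coding bases, the bin that holds this median length, 26.4% were depleted, with a median of -0.69. No share matched to the length of each gene of the family is given here. The difference between this family and the respiratory chain members was not tested. The 13 subunits encoded in mitochondrial DNA were listed at 0 in all 4 libraries, as were all 37 genes of the mitochondrial chromosome, so their level is not described.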

How the data were processed

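Native RIP-seq of ORC1-FLAG was done on HCT116 nuclei, with 2 IP and 2 Input libraries (stranded total RNA kit). The deposited values are raw read counts per Ensembl gene: the authors trimmed reads (Trimmomatic), aligned them to hg19 (STAR), removed reads on unplaced contigs and counted them with featureCounts. Whether strand was used and how multi-mapping reads were treated are not given in the sources used here, so genes with pseudogenes or overlapping exons are uncertain. Counts were tested in R 4.3.3 with edgeR 4.0.16 (TMM, filterByExpr, robust quasi-likelihood test, group as the only term), over all 14645 genes that passed the filter, and a call needed both an adjusted p under 0.05 and a change past 1 on the log2 scale. SE is the fold change divided by the root of F. In data simulated for IP against Input (14645 genes, 200 of them changed by 2 on the log2 scale), edgeR recovered 82% with 9 false calls. The simulated libraries were drawn independently and all changes had that size, so these figures do not give the error rate of the calls above. The biological coefficient of variation was 0.261.

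Symbols, lengths and coordinates came from GENCODE v44 (GRCh38), a later build than that of the counts. Coding length excludes the stop codon. Members and lists were chosen with earlier results of these data known. Every member was accounted for by counts, and the value of 1 member is not reported here. Named with values were the called members with up to 6 of the largest changes each way, the highest and lowest of each complex, complex II, the core subunits, isoform pairs and the 2 genes with the highest Input level per kilobase; others are named only in lists of called genes or were chosen after their values were seen. The labels tie each Input to its IP by RIP replicate, and libraries of the same number deviated together (r = 0.645). The methods call the anti-FLAG libraries duplicate experiments. Alternatives were RLE, library-size and upper-quartile scaling, other count filters, DESeq2 1.42.0, limma voom 3.58.1, dispersion without the robust step, the replicate block, leaving out each library, other pseudocounts and other member lists.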

Additional observations from a re-analysis of the deposited data

How the results depend on the processing

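The depleted count kept within 1.5 times of 36 in all other fits of the 80 members, from 29 to 44 when 1 library was left out (29 without Input replicate 1, 44 without Input replicate 2), and fell to 11 of 31 without members that have a same-named pseudogene and 16 of 36 without members with exon overlap, lists that hold fewer genes. The enriched count of 4 was 0 with library size only, 2 with upper quartile scaling, 1 in each of those shorter lists, and 0 to 7 when 1 library was left out (2 without IP replicate 1, 7 without IP replicate 2 or Input replicate 1, 0 without Input replicate 2). The median of -0.91 was -1.50 with library size only, -1.07 with upper quartile scaling, -0.65 and -0.59 in the shorter lists, and -1.18 to -0.66 when 1 library was left out. The replicate 1 median ratio was -0.997 with a pseudocount of 0.1 and -1.50 with library size only, and that of replicate 2 was -1.24 with library size only. The rank correlation of fold change with exonic length over the members was 0.19. The shorter lists can only hold fewer calls, and the cause of the other changes, their medians included, was not tested. With the replicate block 36 members were depleted and 4 enriched, the same genes, while 13.4% of all genes were called in each direction, and the block changed no other call among named members. Among assembly factors the block gave 20 depleted and 1 enriched in place of 16 and 2. DESeq2 did not call UQCRHL.

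The sign of small changes turned with library size only for ATP5F1A (-0.34), ATP5F1C (-0.31), NDUFV1 (-0.42), SDHB (-0.52) and UQCRC1 (-0.33), and with upper quartile scaling for SDHB (-0.082). When 1 library was left out it turned within the range of ATP5F1A (-0.062 to 0.63), ATP5F1B (-0.41 to 0.11), ATP5F1C (-0.041 to 0.56), COX6B2 (-1.02 to 0.27), COX7B (-0.58 to 0.035), NDUFS5 (-0.54 to 0.28), NDUFV1 (-0.00026 to 0.32), NDUFV2 (-1.95 to 0.13), SDHB (-0.27 to 0.36) and UQCRC2 (-0.32 to 0.036). Depth limits COX6B2, UQCRHL and NDUFV2, the named members with the fewest counts among those tested, and kept COX6A2, COX7B2, COX8C and COX7A1 from being tested.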
